A study of Drosophila melanogaster with 8 samples.

Results

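Divergent promoters are places where a minus-strand gene and a plus-strand gene start close together and are read away from each other. CDK9 peaks were examined at such promoters on the autosomes. Overlapping peaks (at least 1 bp) of the 4 CDK9 lists were joined to regions, and a region was counted as a divergent promoter region when it touched the stretch between a minus-strand start and a plus-strand start of different genes, 0 to 1000 bp apart, or the 300 bp on either side. By this rule 987 of 5531 regions were divergent promoter regions, among 4204 autosomal regions. The comparison set was the other 1316 autosomal regions within 300 bp of an annotated start, called other start regions here. The rule used position only, and no peak height or treatment entered it.

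CDK9 is the kinase of positive transcription elongation factor b (P-TEFb). It phosphorylates the pausing factors NELF and DSIF and the tail of RNA polymerase II, and the polymerase held just downstream of a start is then released into the gene. Divergent gene pairs are common in the compact fly genome, many of them are housekeeping genes, and insulator-associated proteins such as BEAF-32 and DREF are known to bind between such genes.

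Chromatin immunoprecipitation and sequencing (ChIP-seq) was done in Kc167 cells, an embryonic hemocyte line of Drosophila melanogaster, 3 days after transfection. The groups were CDK9 in siAGO2 cells, which received RNA directed against Argonaute2 (AGO2), and CDK9 in mock cells, which were transfected without RNA, with 2 CDK9 libraries and 2 inputs each. The mock cells received no control RNA, so an effect of transfected RNA and an effect of AGO2 loss cannot be told apart. No label says that the replicates were separate cultures, so p-values measure the spread between libraries only, and the AGO2 level itself was not measured in these peak lists.

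The lists held 1707 and 2295 peaks in the siAGO2 libraries, against 3103 and 3804 in the mock libraries. The lowest local background that the peak caller used, which follows depth, was 0.814 and 0.864 reads in siAGO2 against 2.29 and 1.21 reads in mock. Depth and list length therefore moved with the treatment, and their part in any difference between siAGO2 and mock was not tested beyond the comparison at equal numbers of peaks given below. Of 10 hemocyte marker genes, srp and ush had a peak at a start in all 4 lists and Hml, He, vkg, crq, NimC1 and Sr-CI in none, and a CDK9 peak is not expression. Of 8 markers of other cell types, nanos had a peak in all 4 lists, in a region shared with its neighbour CG11779, and elav had one in mock 2 only.

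The stretches between the starts carried different short elements from pair to pair, and 8 of the 16 named pairs with a short stretch free of annotated exons are printed to show them. They are given on the plus strand, 5′ to 3′, from the RefSeq Release 6 genome, the assembly also known as dm6. Capitals mark matches, on either strand, to GAGAG (the element bound by GAGA factor), CGATA (the core bound by BEAF-32), TATCGATA (the DNA replication-related element bound by DREF, which contains CGATA on both strands) or TATAAA (the TATA box). A match is a description of the letters, not a bound site. The first 3 stretches lay at top-ranked coding/coding pairs, namely S/ast (chr2L:1077816-1077947), janA/Sry-alpha (chr3R:30039534-30039718) and CG11779/nanos (chr3R:19157018-19157237), and they held CGATA matches and no GAGAG.
S/ast: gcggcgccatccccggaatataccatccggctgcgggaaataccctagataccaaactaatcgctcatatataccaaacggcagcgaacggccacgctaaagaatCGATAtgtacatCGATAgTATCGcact
janA/Sry-alpha: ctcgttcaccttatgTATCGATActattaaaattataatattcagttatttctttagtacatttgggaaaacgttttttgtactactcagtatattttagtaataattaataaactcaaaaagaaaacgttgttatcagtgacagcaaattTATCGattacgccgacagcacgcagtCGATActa
CG11779/nanos: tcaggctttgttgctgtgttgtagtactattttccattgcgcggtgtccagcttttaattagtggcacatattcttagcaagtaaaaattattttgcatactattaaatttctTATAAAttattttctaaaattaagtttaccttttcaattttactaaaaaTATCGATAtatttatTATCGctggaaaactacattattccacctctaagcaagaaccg

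The next 2 lay between a coding gene and a long noncoding RNA gene, at elB/lncRNA:CR44733 (chr2L:14409550-14409754) and lncRNA:CR45805/Pdk1 (chr3L:131572-131811). They held 4 GAGAG matches each and no CGATA.
elB/lncRNA:CR44733: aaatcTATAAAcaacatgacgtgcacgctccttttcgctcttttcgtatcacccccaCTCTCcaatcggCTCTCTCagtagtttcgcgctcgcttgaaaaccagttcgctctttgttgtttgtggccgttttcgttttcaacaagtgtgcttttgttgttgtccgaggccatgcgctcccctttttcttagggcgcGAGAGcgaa
lncRNA:CR45805/Pdk1: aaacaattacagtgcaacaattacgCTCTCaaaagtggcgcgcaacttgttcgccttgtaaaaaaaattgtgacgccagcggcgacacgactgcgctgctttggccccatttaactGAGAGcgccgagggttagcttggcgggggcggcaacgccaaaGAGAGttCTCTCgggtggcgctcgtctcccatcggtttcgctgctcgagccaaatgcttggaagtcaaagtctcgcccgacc

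The last 3 lay at pairs with a gene of translation, namely eIF3a/CG1074 (chr3R:4433896-4433964), Vps39/eIF1A (chr3R:18274447-18274664) and GlnRS/RIOK2 (chr3R:25265722-25265843). They held 3, 4 and 2 CGATA matches in that order, and again no GAGAG.
eIF3a/CG1074: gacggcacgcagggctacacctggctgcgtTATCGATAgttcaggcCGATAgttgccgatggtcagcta
Vps39/eIF1A: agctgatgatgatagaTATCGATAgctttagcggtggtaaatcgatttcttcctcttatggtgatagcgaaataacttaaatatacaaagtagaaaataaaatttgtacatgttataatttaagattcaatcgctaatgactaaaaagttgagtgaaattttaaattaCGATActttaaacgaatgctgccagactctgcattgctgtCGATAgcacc
GlnRS/RIOK2: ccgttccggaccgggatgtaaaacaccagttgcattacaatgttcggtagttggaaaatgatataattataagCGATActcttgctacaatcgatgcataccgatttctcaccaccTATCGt

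The divergent promoter regions were mostly pairs of protein-coding genes. Of the 987, 891 (90.3%) lay at coding/coding pairs and 79 (8.00%) at pairs of a coding and a noncoding RNA gene. The remaining 17 held a pseudogene (6), a tRNA gene (5), a snoRNA gene (1) or no coding gene (5). The gap between the starts ranged from 0 to 999 bp with a median of 312 bp, and the merged regions were 147 to 1926 bp wide with a median of 290 bp. Chromosome arm 3R held 333 regions, 2R 262, 2L 197, 3L 194 and chromosome 4 a single one. The annotation (Ensembl release 115) has 2923 autosomal divergent gene pairs, of which 892 (30.5%) were touched by a region, and for coding/coding pairs alone the count was 790 of 2264 (34.9%).

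A CDK9 peak was found at 285 and 433 of the 987 regions in the siAGO2 libraries, against 435 and 808 in the mock libraries. The groups did not overlap, although siAGO2 2 and mock 1 differed by only 2 regions. The means were 359 ± 105 in siAGO2 and 621.5 ± 264 in mock (SD, n = 2 each), a ratio of 0.578. The exact permutation test over libraries, two-sided, gave p = 0.333, the smallest that 2 against 2 libraries allow. When the same number of top peaks was taken from every list the ratio was 1.01, and leaving out 1 library at a time gave 0.445 to 0.827.

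Many of these regions rested on a single list. A peak was present in 1 list only at 485 regions, in 2 lists at 196, in 3 lists at 140 and in all 4 lists at 166 (16.8%). Of the 485 regions found in a single list, 21 came from siAGO2 1, 68 from siAGO2 2, 71 from mock 1 and 325 (67.0%) from mock 2. The share in all 4 lists was 29.0% among other start regions and 18.5% among all regions, both above the 16.8% of divergent promoter regions.

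**Figure D1:**
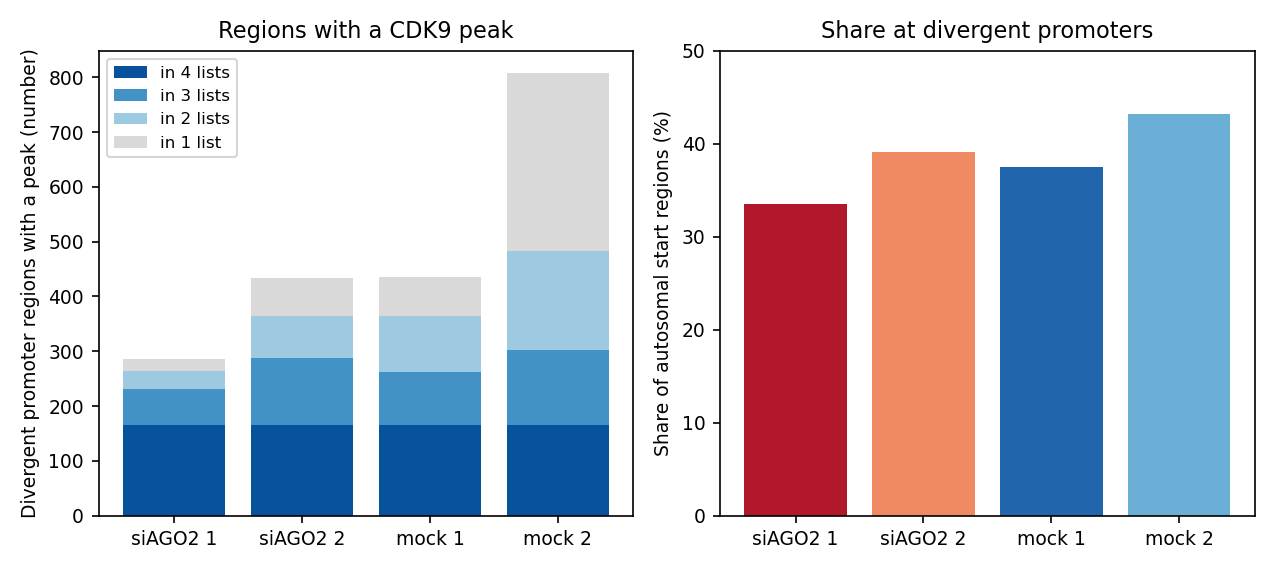
Left, the number of autosomal divergent promoter regions with a CDK9 peak in each library, stacked by the number of lists in which the region has a peak. Right, these regions as a percentage of all autosomal start regions with a peak in the library. The siAGO2 libraries hold 285 and 433 regions and the mock libraries 435 and 808, while the shares overlap between the groups.

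As a share of all autosomal start regions with a peak, divergent promoter regions made up 33.6% and 39.2% in siAGO2 against 37.5% and 43.2% in mock. The shares overlapped between the groups, although within each replicate number the siAGO2 share was the lower. The difference was -4.01 percentage points (exact permutation test, p = 0.667). It was -0.17 points at equal numbers of peaks per list, -1.20 without siAGO2 1, -1.37 without mock 2, -6.80 without mock 1 and -6.96 without siAGO2 2, and when only regions that touch the stretch itself were counted it was 3.63 points, the opposite sign.

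Regions that touched the stretch between the starts and regions beside it differed in height and in how often they were called. Of the 987 regions, 507 touched the stretch between the starts and 480 lay only in the 300 bp on either side, on the gene side of a start. Those that touched the stretch were present in all 4 lists in 152 cases (30.0%), the flanking ones in 14 (2.92%). Touching was judged on the merged region, which can only widen as more lists contribute. The part of this rule in the difference was not tested. The flanking regions made up 15.8% and 34.2% of the regions with a peak in siAGO2, against 40.5% and 43.4% in mock. Their median fold enrichment was 3.99 and 4.26 in siAGO2 against 3.39 and 4.12 in mock. The fold is the deposited ratio of reads at the summit to the local background, with a small constant added to both. Regions that touched the stretch had medians of 5.34 and 5.26 in siAGO2 against 4.10 and 4.96 in mock, above the flanking regions in every library.

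Compared with other start regions, divergent promoter regions had slightly lower and narrower peaks. Their median fold enrichment was 5.17 and 4.81 in siAGO2 and 3.74 and 4.51 in mock. Other start regions had 5.59 and 5.46 in siAGO2 and 4.18 and 5.02 in mock. The ratio averaged 0.900 and was below 1 in 4 of 4 libraries (exact sign-flip permutation test over libraries, two-sided, p = 0.125, the smallest that 4 libraries allow). The median peak width was 250 and 244 bp in siAGO2 and 244 and 277.5 bp in mock, against 296.5 and 287 bp in siAGO2 and 259 and 320.5 bp in mock at other start regions, a ratio of 0.874 (exact sign-flip p = 0.125). With the flanking regions counted among the other start regions, both ratios turned round, to 1.02 for the fold (exact p = 0.5) and 1.05 for the width (exact p = 0.375).

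The 10 divergent promoter regions ranked highest by deposited significance over the 4 lists are given next, with the fold enrichment in every library. The rank is the percentile of a region's −log10 q within its own list. CG31522, of the fatty acid elongase family, and asRNA:CR43629 (region chr3R:4452176-4454101) had 27.0 and 27.9 in siAGO2 against 13.9 and 23.3 in mock, the highest values of any divergent promoter region in 3 of the 4 libraries. Atg16, an autophagy gene, and Prtl99C, which encodes a sperm chromatin protein, had 14.8 and 16.1 in siAGO2 against 16.2 and 12.8 in mock, and the 16.2 was the highest value in mock 1. The groups overlapped at Atg16/Prtl99C, and at CG31522/asRNA:CR43629 both siAGO2 values lay above both mock values. The median fold of divergent promoter regions with a peak had the same order, 5.17 and 4.81 in siAGO2 against 3.74 and 4.51 in mock. That order is therefore not particular to this pair.

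At 4 further top pairs the folds of the groups overlapped. Star (S), which moves ligands of the epidermal growth factor receptor to the cell surface, and asteroid (ast) (chr2L:1077507-1078333) had folds of 11.8 and 13.7 in siAGO2 against 9.01 and 19.2 in mock. The zinc finger gene elB and lncRNA:CR44733 (chr2L:14409207-14410034) had 16.6 and 20.1 in siAGO2 against 8.14 and 19.2 in mock. In both pairs mock 1 was the lowest library. The region of CG11779 and nanos, a repressor of translation in the embryo's posterior (chr3R:19156406-19157096), had 9.93 and 14.7 in siAGO2 against 7.85 and 11.8 in mock. The region of E2f1, an activator of S-phase genes, and asRNA:CR46055 (chr3R:21632660-21634042) had 10.3 and 12.4 in siAGO2 against 7.51 and 16.4 in mock.

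The other 4 top pairs follow. janA and Sry-alpha, which is needed for cell formation in the early embryo (chr3R:30039324-30040164), had 17.5 and 18.2 in siAGO2 against 14.3 and 14.7 in mock. lncRNA:CR45805 and Pdk1, a kinase of insulin signalling (chr3L:131149-132017), had 10.1 and 15.3 in siAGO2 against 11.1 and 14.6 in mock. chic, which encodes profilin, and eIF4A, the helicase of translation initiation (chr2L:5979873-5981175), had 6.54 and 18.7 in siAGO2 against 8.49 and 18.2 in mock. At chic/eIF4A the replicates numbered 2 were high and those numbered 1 low in both groups, and its summits lay 701 to 751 bp inside chic. Reg-5/asRNA:CR43257 (chr2R:24793113-24794031) had 12.8 and 14.2 in siAGO2 against 13.3 and 19.5 in mock. Of these, only janA/Sry-alpha had both siAGO2 folds above both mock folds, the same order as the medians of divergent promoter regions.

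**Figure D2:**
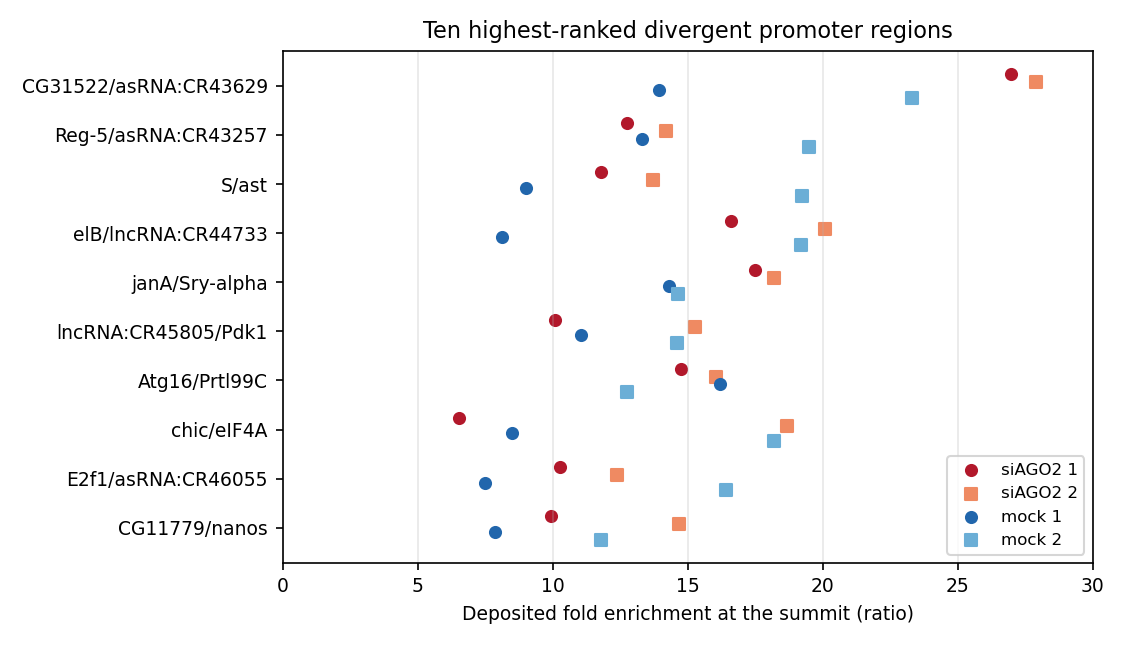
Deposited fold enrichment (ratio, horizontal axis) of the 10 highest-ranked divergent promoter regions in each of the 4 libraries, with siAGO2 in red tones and mock in blue tones. At CG31522/asRNA:CR43629 and janA/Sry-alpha both siAGO2 values lie above both mock values, and the groups overlap at the other 8 pairs. The median fold of divergent promoter regions with a peak is likewise higher in both siAGO2 libraries than in both mock libraries.

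No individual divergent promoter region passed a rank test of siAGO2 against mock. Of the 1022 regions with a peak in all 4 lists, 0 passed an adjusted p of 0.05 in limma on normal scores of the ranks (0% of those tested), and 0 of the 166 divergent promoter regions did. With the replicate number as a block 2 of the 1022 regions passed, neither of them a divergent promoter region. At an unadjusted p under 0.05 there were 8 of 166 divergent promoter regions (4.82%), below the 6.46% of all regions tested. In simulated data of 1022 regions the test called 16 of 200 regions shifted by 1 normal-score unit and 103 of 200 shifted by 2. A lack of calls is therefore not a lack of change. The largest differences in rank towards siAGO2 were at lncRNA:CR43945/CG13252 (1.50 ± 0.510 normal-score units, SE), Glg1/M6 (1.45 ± 0.469) and Vps39/eIF1A (1.45 ± 0.410). The largest in the opposite direction were at RPA1/Mcm2, a pair of replication genes (-1.44 ± 0.392), RpL41/NaCP60E (-1.15 ± 0.610) and lncRNA:CR44032/C15 (-1.13 ± 0.362). The adjusted p was 0.835 at RpL41/NaCP60E and 0.671 at each of the other 5 regions, the smallest among divergent promoter regions (limma, Benjamini-Hochberg over 1022 regions).

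The fold values behind 2 of these pairs show how far the libraries lay apart. Vps39, a subunit of a vesicle tethering complex, and the initiation factor eIF1A had folds of 9.21 and 11.0 in siAGO2 against 4.17 and 4.72 in mock. RPA1/Mcm2 had 3.24 and 3.63 in siAGO2 against 4.70 and 6.42 in mock. The groups did not overlap at either pair, which follows largely from naming the largest differences, and neither pair passed the test. Across the 166 regions the ranks of any 2 lists correlated with a Spearman's rho of 0.567 to 0.695, which is a description over regions that share their libraries' depth.

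Divergent promoter regions with a peak in both libraries of one group and in neither of the other were mostly on the mock side. There were 4 such regions for siAGO2 (0.405%, against 0.416% of all regions) and 90 for mock (9.12%, against 6.07% of all regions). With equal numbers of peaks per list the counts were 18 for siAGO2 and 15 for mock, and the mock side was no longer the larger. Leaving out 1 library at a time loosened the rule, which then asked only about the libraries left. These looser counts were 8 to 73 for siAGO2 and 107 to 414 for mock. The 4 regions of siAGO2 had a median percentile of 21.0 and the 90 of mock 39.8, both below the 68.5 of regions in all 4 lists.

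The 4 regions of siAGO2 alone were at Prosalpha7/CG1671, CG42260/blw, CG11825/Prx6b and GM130/NtR, the last of which was named after its values were seen. Prosalpha7, a subunit of the proteasome core, had folds of 5.29 and 5.90, with 16 reads at the summit in each siAGO2 library. The ATP synthase gene blw had 3.99 and 6.33, with 10 and 11 reads. Prosalpha7 was above the median fold of divergent promoter regions in both siAGO2 libraries, and blw in siAGO2 2 only. In mock alone the highest were mRpS29/rad50 at 7.46 and 8.29, RpS19b/CG5854 at 4.44 and 5.79, and CG17574/bic at 5.44 and 5.19, with 18 to 29 reads at the summit. The lists of the groups were largely nested: of 217 divergent promoter regions in both siAGO2 lists 213 (98.2%) had a peak in a mock list, and of 349 in both mock lists 259 (74.2%) had one in a siAGO2 list.

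Within the regions the summit usually lay inside one of the genes. The rule for these regions sets part of this, since the 480 that lay only beside the stretch cannot have a summit between the starts. In the siAGO2 libraries 39.3% and 42.7% of summits were on the side of the minus-strand gene, 27.4% and 20.1% between the starts, and 33.3% and 37.2% on the side of the plus-strand gene. In the mock libraries 40.9% and 41.7% were on the minus side, 17.2% and 16.6% between the starts, and 41.8% and 41.7% on the plus side. The share between the starts was 23.7 ± 5.14% in siAGO2 and 16.9 ± 0.465% in mock (SD, n = 2 each), a difference of 6.82 percentage points with groups that did not overlap (exact permutation test, p = 0.333). It was 2.72 points at equal numbers of peaks per list, 3.50 without siAGO2 1 and 10.9 without siAGO2 2.

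Each region mostly kept its side across libraries. Of the 166 regions with a peak in all 4 lists, 121 (72.9%) had the summit on the same side in every library, 42 in the minus-strand gene, 34 between the starts and 45 in the plus-strand gene. Only 3 had summits in opposite genes in different libraries. Between any 2 lists 82.7% to 87.1% of shared regions had the same side, and the median shift of the summit was 39 to 50.5 bp. Much of this follows from joining overlapping peaks, which keeps the summits of a region close together. Peaks on each side of a pair can form separate regions, as at chic/eIF4A, so these shares are a description only.

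Few pairs had a peak on both sides, and few starts had a peak at all. Of the 2923 annotated pairs, 5.54% to 15.7% had a summit 0 to 300 bp downstream of either start, depending on the library. Of those, 2.93% to 5.46% had one at both starts (5 to 25 pairs). Single starts in divergent pairs had such a summit in only 3.04% to 8.68% of cases, so few pairs could have both. Whether the starts of a pair share or avoid summits was not tested. Pairs with gaps over 500 and up to 1000 bp had a downstream summit in 5.24% to 12.7% of cases, and pairs just beyond the limit of the rule, over 1000 and up to 1500 bp, in 3.66% to 11.9%. At gaps of up to 100 bp a single peak spanned both starts in 45.5% and 41.3% of regions with a peak in siAGO2 and in 40.0% and 38.5% in mock.

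The position relative to the start differed from that at other start regions. Measured from the closest start, the median summit was 39 and 93 bp into the gene in siAGO2 and 159 and 136 bp into it in mock. At other start regions the median was upstream, at -43.5 and -26 bp in siAGO2 and -15 and -8.5 bp in mock. Much of this follows from the layout, since at a divergent pair any summit outside the stretch is downstream of one of the genes, so it was not tested.

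**Figure D3:**
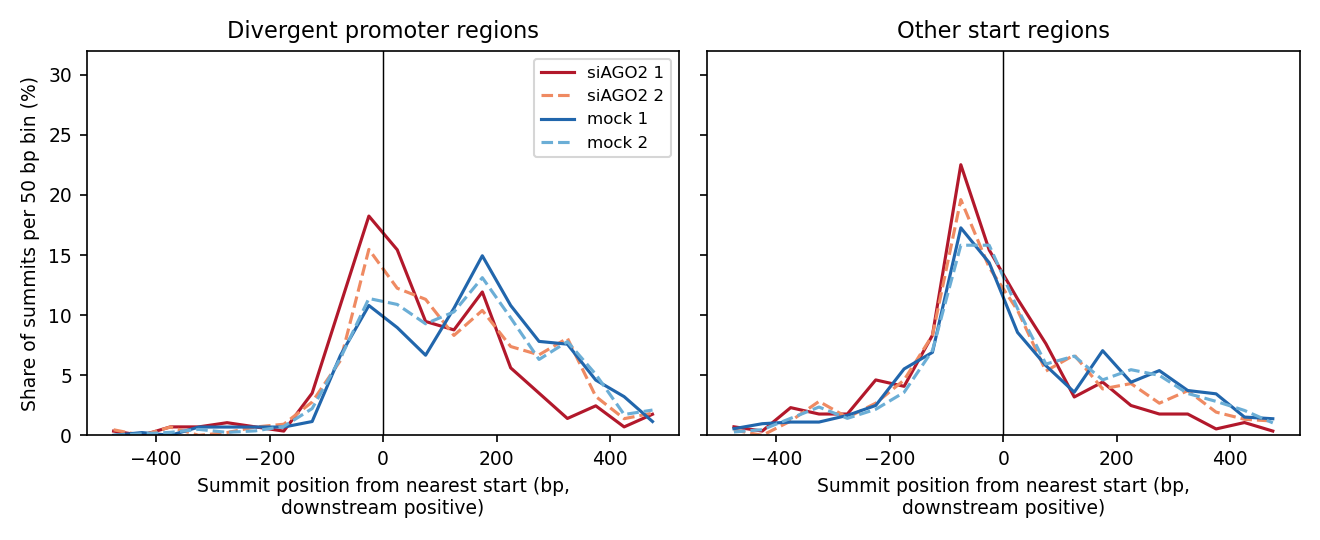
Share of summits (percent per 50 bp bin) by distance from the nearest annotated start (bp, downstream positive) in each library, for divergent promoter regions (left) and other start regions (right). The median summit lies 39 to 159 bp downstream of the start at divergent promoter regions and upstream of it, at -43.5 to -8.5 bp, at other start regions.

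A window of the same size at every start avoids that layout. Of 6292 autosomal starts in divergent pairs, 191 and 281 (3.04% and 4.47%) had a summit 0 to 300 bp downstream in siAGO2, and 290 and 546 (4.61% and 8.68%) in mock. Of 13385 one-way starts, those in no such pair, 232 and 298 (1.73% and 2.23%) had one in siAGO2, and 322 and 499 (2.41% and 3.73%) in mock. Divergent starts were higher in 4 of 4 libraries, by 1.75, 2.01, 1.92 and 2.33 times in siAGO2 1, siAGO2 2, mock 1 and mock 2, with a mean difference of 2.67 percentage points (exact sign-flip permutation test, p = 0.125). The difference was 1.37 points at equal numbers of peaks per list, 0.997 for peaks above the median significance of their list and 1.13 in a window of 150 bp. Among one-way starts 2.76% and 3.04% in siAGO2 and 2.97% and 4.21% in mock had a summit in the 300 bp upstream. Whether more of the genes in divergent pairs are active in these cells was not tested.

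The short elements at the summit also differed from those at other start regions. CGATA, the core of the BEAF-32 site, was found within 100 bp of the summit at 34.9% to 45.6% of divergent promoter regions with a peak, against 23.8% to 26.6% of other start regions, a mean difference of 13.8 percentage points. GAGAG, the element of GAGA factor (Trl), a protein linked to open and paused promoters, was found at 29.2% to 39.3% of divergent promoter regions, against 54.2% to 67.9% of other start regions, a difference of -27.0 points. Each difference had the same sign in 4 of 4 libraries (exact sign-flip permutation test, p = 0.125 for each). The summits lay further into the gene at divergent promoter regions, and the part of this position was not tested. With only regions that touch the stretch counted as divergent promoter regions, the differences were 25.9 points for CGATA and -18.6 points for GAGAG. The longer DREF element TATCGATA was at 6.44% to 10.9% of divergent promoter regions, against 2.53% to 3.20% of other start regions. GGTCACAC, the core of the element of M1BP, was rare in both, at 2.46% to 3.09% against 2.08% to 2.54%. TATAAA and CACGTG were close in both kinds of region (exact sign-flip p = 0.5 and 0.25). These 6 elements were each compared in the same way and the p-values are not adjusted.

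**Figure D4:**
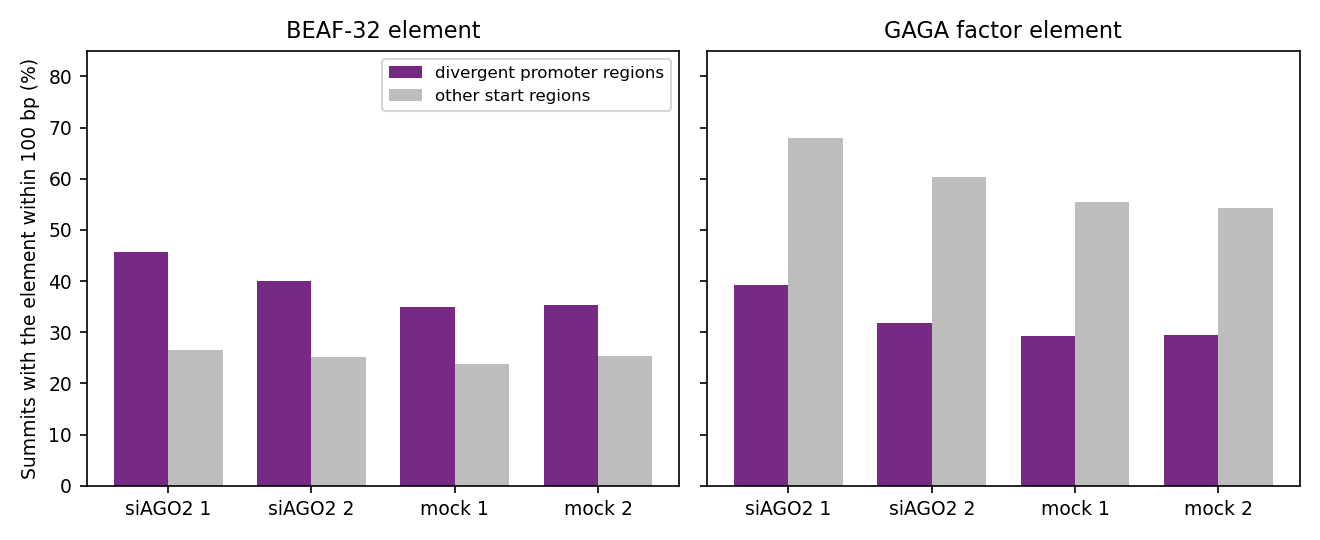
Percentage of summits with the BEAF-32 element (left) or the GAGA factor element (right) within 100 bp, for divergent promoter regions (purple) and other start regions (grey) in each library. The BEAF-32 element is at 34.9% to 45.6% of divergent promoter regions and the GAGA factor element at 29.2% to 39.3%, and in every library the purple bar is the higher on the left and the lower on the right.

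The same contrast was present in the promoter sequence itself, counted from 250 bp before to 50 bp after the start of protein-coding genes, both strands searched. Both genes of a divergent pair were counted, so their windows can overlap and hold the same match. A divergent window can also reach the neighbour's promoter. The part of this layout in the shares was not tested. CGATA was found in 64.7% of divergent promoters with a region and 52.7% of those without, in 50.6% of one-way promoters with a region, and in 46.5% of all promoters. GAGAG was found in 26.3% of divergent promoters with a region and 23.0% of those without, in 47.6% of one-way promoters with a region, and in 30.2% of all. For TATCGATA the shares were 19.2%, 12.0%, 12.4% and 8.63% in the same order. GAGAG was thus below its share of all promoters at divergent promoters with and without a CDK9 region.

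Divergent promoter regions with CGATA near the summit had higher peaks, by 1.14 times in the median fold (1.11 to 1.20 over the libraries, exact sign-flip p = 0.125), and those with GAGAG by 1.09 times (1.03 to 1.16, exact p = 0.125). At other start regions the ratio was 1.01 for CGATA (exact p = 0.375) and 1.22 for GAGAG (exact p = 0.125). Summits with CGATA lay between the starts in 41.5% and 34.1% of cases in siAGO2 and 33.6% and 29.7% in mock. Without CGATA these shares were 15.5% and 10.8% in siAGO2 and 8.48% and 9.39% in mock, lower in every library.

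Pairs of a coding and a noncoding RNA gene differed from coding/coding pairs in peak height and summit position. Their median fold was 5.89 and 6.38 in siAGO2 and 4.24 and 5.89 in mock, against 5.12 and 4.71 in siAGO2 and 3.70 and 4.48 in mock at coding/coding pairs, a ratio of 1.24. Their summits lay between the starts in 46.2% and 43.2% of cases in siAGO2 and 40.0% and 33.8% in mock, against 24.2% and 16.9% in siAGO2 and 14.0% and 14.9% in mock at coding/coding pairs. Both differences had the same sign in 4 of 4 libraries (exact sign-flip permutation test, p = 0.125 for each). The gap between the starts was also wider at these pairs, with a median of 483 bp against 305 bp. Its part in the summit position was not tested beyond gaps of up to 500 bp, where the difference was 14.8 points. Other start regions had median folds of 5.59 and 5.46 in siAGO2 and 4.18 and 5.02 in mock. In every library that value lay between those of the coding/ncRNA and the coding/coding pairs.

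The elements at these summits differed as well. GAGAG was near the summit at 64.1% and 50.0% of coding/ncRNA regions in siAGO2 and 53.3% and 48.5% in mock, against 35.0% and 29.6% in siAGO2 and 26.4% and 27.8% in mock at coding/coding regions. CGATA was near 23.1% and 25.0% in siAGO2 and 22.2% and 19.1% in mock, against 49.6% and 41.7% in siAGO2 and 36.7% and 36.9% in mock. Other start regions had GAGAG at 54.2% to 67.9% and CGATA at 23.8% to 26.6%. In every library these shares were nearer to those of coding/ncRNA than of coding/coding regions. Of the 79 coding/ncRNA regions 25 (31.6%) were in all 4 lists, against 139 of 891 coding/coding regions (15.6%). Among coding/ncRNA summits outside the stretch, those on the coding side were 61.9% and 68.0% in siAGO2 and 55.6% and 73.3% in mock. Their 95% exact binomial intervals, which cover counting error only, ran from 38.4% to 81.9% in siAGO2 1 and from 58.1% to 85.4% in mock 2, and only in mock 2 did the interval lie above an equal split.

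**Figure D5:**
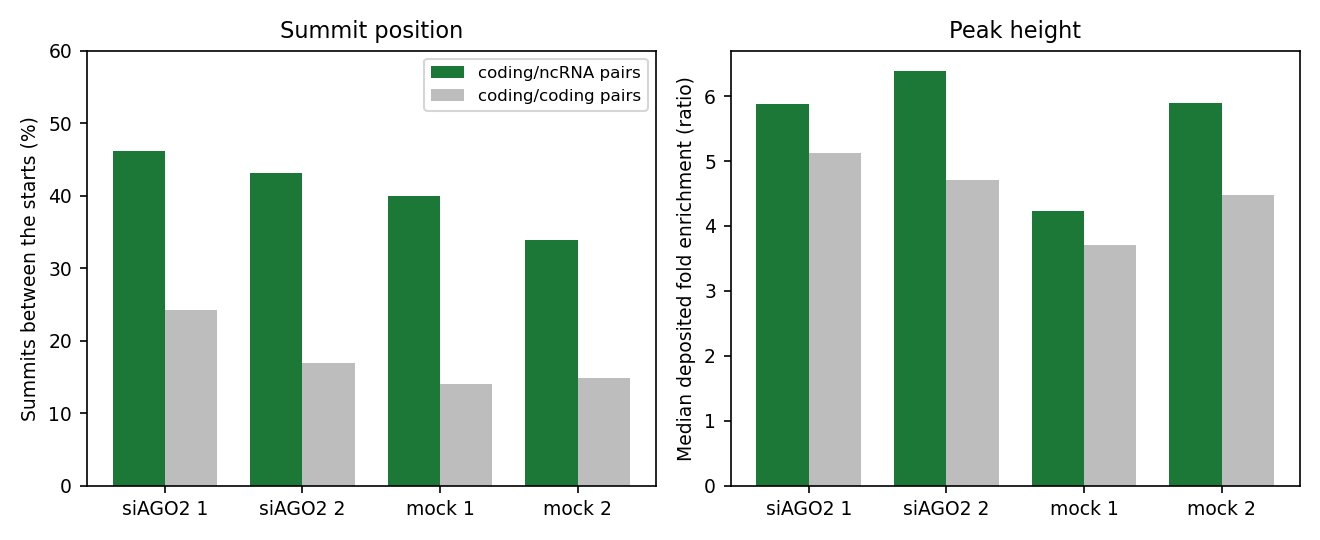
Percentage of summits between the starts (left) and median deposited fold enrichment (ratio, right) for coding/ncRNA pairs (green) and coding/coding pairs (grey) in each library. The green bars are the higher in every library, at 33.8% to 46.2% against 14.0% to 24.2% on the left.

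Genes with shared functions were counted next, from lists chosen by symbol. Of all 5401 autosomal genes in a divergent pair, 1698 (31.4%) had a divergent promoter region, and the groups are read beside that share without a test. Translation initiation factors stood at 12 of 18 genes (66.7%), cytoplasmic ribosomal proteins at 23 of 47 (48.9%) and proteasome subunits at 11 of 23 (47.8%). Oxidative phosphorylation stood at 16 of 37 (43.2%) and mitochondrial ribosomal proteins at 19 of 49 (38.8%). Of their regions 7 of 15, 8 of 31, 1 of 12, 0 of 20 and 3 of 22, in that order, were in all 4 lists. Among all divergent promoter regions 16.8% were. The median percentiles were 63.6, 39.6, 35.7, 35.7 and 43.3, against 40.1 for all. Aminoacyl tRNA synthetases, at 6 of 19 (31.6%), and pausing and elongation factors, at 3 of 10 (30.0%), were close to the share of all genes. Cell cycle genes were at 4 of 8, heat shock and chaperone genes at 5 of 11, insulator and promoter factors at 4 of 9, and snoRNA genes at 4 of 24. Histone genes (5 of 91) and tRNA genes (4 of 91) were far below it, and both occur in near-identical copies, whose reads a mapping quality filter can remove, the part of which was not tested.

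Members of these groups ranged from high to barely called peaks. RpL32, of the large ribosomal subunit, with CG7943 had folds of 8.34 and 10.0 in siAGO2 against 7.33 and 12.8 in mock. eIF3a, of the factor that holds the small subunit ready for initiation, with CG1074 had 7.68 and 6.56 in siAGO2 against 8.74 and 11.4 in mock. The region of BEAF-32, whose protein binds CGATA, and asRNA:CR42254 had 9.67 and 8.67 in siAGO2 against 8.05 and 11.8 in mock. The groups overlapped at RpL32 and BEAF-32, whereas at eIF3a both mock folds lay above both siAGO2 folds.

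At regulators of the cell cycle and of the small RNA pathway the libraries of a group lay far apart. stg, the phosphatase that starts mitosis, with CG45544 had folds of 3.99 and 6.53 in siAGO2 against 5.58 and 9.22 in mock. The mitotic kinase gene aurA with CG3281 had 8.57 and 4.54 in siAGO2 against 4.94 and 5.39 in mock. AGO1, the Argonaute of the microRNA pathway, shares its promoter with mRpL53, and their region had 8.70 and 5.03 in siAGO2 against 4.59 and 5.70 in mock. In all 3 regions the siAGO2 libraries lay farther from each other than the group means did.

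The 3 regions at pausing and elongation factors were called in 4, 3 and 2 lists. Su(Tpl), the fly ELL elongation factor, with Prp3 had folds of 5.32 and 3.59 in siAGO2 against 6.14 and 3.49 in mock. NTPase/lilli, the last a scaffold of the super elongation complex, had 6.06 and 6.44 in siAGO2 and 4.08 in mock 2, with no peak in mock 1. Nelf-A, a subunit of NELF, with CG3337 had a peak in siAGO2 1 at 5.16 and in mock 2 at 3.65 only. Each was called with 9 to 25 reads at the summit. Of the genes that the study displayed, Traf4, an adaptor of tumour necrosis factor receptors, with lncRNA:CR45363 had 6.53 and 6.43 in siAGO2 against 5.39 and 10.9 in mock. Socs36E, an inhibitor of JAK/STAT signalling, with CG17681 had a peak in siAGO2 2 at 4.65 and in mock 2 at 3.54.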

How the data were processed

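CDK9 ChIP-seq of Kc167 cells was analysed from 4 peak lists, 2 siAGO2 and 2 mock, and the inputs entered only through the peak caller. The authors used cutadapt to trim single-end reads of 50 bp and Bowtie2 to align these to dm6, kept mapping quality 20 or more, removed duplicates with Picard, and called peaks per replicate with MACS2. The submitters' processing notes give cutadapt 1.10, Picard 2.11.0 and MACS2 2.1.1.20160309, and the study's methods name other versions of cutadapt and Picard. MACS2 options for CDK9 are not given in the sources used here. The deposited columns are the fold, −log10 p, −log10 q, a score of 10 times −log10 q, and a summit offset. The fold is the ratio of reads to background with a small constant added to both. From the deposited fold and −log10 p values, whole reads at the summit were recovered for 100% of peaks (tolerance 0.0005 in −log10 p). Each region took its highest peak in a library. Group means were compared by exact permutation of libraries, contrasts within libraries by exact sign flips, and ranks with limma 3.58.1 (R 4.3.3), tested on simulated data. A lead pair was the touched pair with the smallest gap. Named regions were the 10 highest by mean percentile, the 3 highest of each group alone, the 3 largest rank differences each way, up to 3 per gene list, and genes the study displayed. Members and lists were chosen with earlier results of these data known. The element and coding/ncRNA comparisons were chosen after seeing the data.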

Additional observations from a re-analysis of the deposited data

How the results depend on the processing

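Results were recomputed without each library, with equal numbers of top peaks and with gaps of up to 500 bp. Where they applied, coding genes only (not for the coding/ncRNA results), regions touching the stretch itself (not for the starts) and peaks above the median significance of their list (not for the limma ranks) were also tried. The ratio of regions with a peak in siAGO2 over mock was 1.01 with equal numbers of peaks, which takes out list length, and 0.445 to 0.827 without 1 library. For regions touching the stretch itself the difference in share was 3.63 points, the fold ratio to other start regions 1.02 and the width ratio 1.05, each with the opposite sign. Regions of siAGO2 alone numbered 8 to 73 without 1 library, 18 with equal numbers of peaks, 2 with gaps of up to 500 bp and 1 above the median significance. Regions of mock alone numbered 107 to 414 without 1 library, 15 with equal numbers of peaks, 37 touching the stretch and 37 above the median significance. Both ranges without 1 library follow a looser rule, which asked only about the libraries left. The difference in downstream summits between divergent and one-way starts was 0.997 to 3.13 points over its alternatives. It, the element and the coding/ncRNA differences kept their sign in the alternatives run, which were chosen after seeing the data for the last 2 kinds. In the ranks, replicate numbers did not pair the samples (correlation of same-numbered deviations 0.00101 over 1022 regions). In list length, number of divergent promoter regions and their share, replicate 2 was above replicate 1 in both groups. With the replicate block the ratio of regions was 0.593, the share difference -4.01 points and the summits between the starts 6.82 points. The exact sign-flip p was 0.5 for each, the smallest possible. In limma with this block 0 divergent promoter regions were called (2 of all 1022 regions), with 8 at an unadjusted p under 0.05. The exact permutation of 2 against 2 libraries cannot give a p below 0.333. Peaks had a median of 14 to 21 reads at the summit, so absence from a list is not absence of CDK9.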
